A study of Homo sapiens with 24 samples.

Results

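The 10 genes described here encode 5 ligands of the fibroblast growth factor (FGF) family (*FGF2*, *FGF9*, *FGF18*, *FGF19* and *FGF20*), the 4 FGF receptor tyrosine kinases (*FGFR1*, *FGFR2*, *FGFR3* and *FGFR4*) and the secreted FGF-binding protein *FGFBP1*. The list is one of gene names, drawn up with earlier results of these data known, and makes up 10 of the 58051 gene identifiers in the files. RNA-seq libraries came from 3 established human colorectal carcinoma cell lines, HT29, HCT116 and SW480, which were all grown in DMEM with fetal calf serum. In KO clones both alleles of *CTNNB1*, the gene of β-CATENIN, had lost exon 7 through CRISPR/Cas9, which shifts the reading frame. WT clones had been through the same procedure and were left unedited at *CTNNB1*. WT thus means unedited, because HCT116 carries a gain-of-function mutation in *CTNNB1* itself. HT29 and SW480 carry inactivating mutations in *APC*. Each line contributed 2 WT clones and 2 KO clones, each sequenced in rounds A and B, and hence 4 libraries per line and genotype. In HT29 these are clones 11 and 40 (WT) against 28 and 38 (KO), in HCT116 clones 4 and 6 against 44 and 47, and in SW480 clones 4 and 5 against 17 and 21. A library bears the name of its clone and round, such as KO 38A. Every clone grew from a single cell, so that p-values measure the spread between libraries that come from only 2 clones per genotype, and SW480 KO cells became senescent upon prolonged culture.

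Most FGFs are secreted proteins that bind receptor tyrosine kinases together with heparan sulfate on the cell surface. Bound receptors pair, phosphorylate the adaptor FRS2 and switch on the RAS-MAPK and PI3K routes, and the same signal induces its own inhibitors of the SPRY, SPRED and DUSP families. FGF19 is the exception among the ligands measured here, because it acts as a hormone of bile acid metabolism that needs the coreceptor β-Klotho and signals mainly through FGFR4. In the WNT pathway β-CATENIN acts with DNA-binding factors of the TCF/LEF family, and *FGF9*, *FGF18*, *FGF19* and *FGF20* have each been linked to WNT signaling in tumors. The comparisons ask how the levels of these genes differ with and without β-CATENIN in each line.

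The unit throughout is the normalized count, that is reads per gene divided by the size factor of the library, so that 1 unit is close to 1 read. Libraries held between 22297049 and 29068378 reads on genes. *CTNNB1* itself was lower in KO than in WT libraries in each line, by log2 differences of −4.33 in HT29, −5.77 in HCT116 and −5.54 in SW480. One library stood apart: HCT116 KO 47A had at least 1 read for 35449 genes, against 20256 to 24944 in the other libraries, and several genes that were silent in the remaining HCT116 libraries had a few reads in it, among them *FGF20* with 3. Summed epithelial markers (10 genes) ranged from 131456 to 784641 normalized counts. Sums of 7 fibroblast markers ranged from 14.2 to 1212, those of the 4 endothelial markers that had a match from 0.960 to 234.2, and those of 5 leukocyte markers from 2.78 to 328.2. *CDX1* was at 0 in each library of all groups other than HT29 KO.

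The 2 members that passed the test in both HCT116 and SW480 were *FGF18* and *FGFBP1*, and their upstream sequences are shown because TCF/LEF factors bind a short motif. The 250 bases before the RefSeq gene start (GRCh38.p14, each written on the strand of the gene) were searched on both strands for CTTTG followed by any pair of bases that are each an A or a T. Capitals mark the match. *FGF18* lies at chr5:171419397-171419646 on the plus strand and *FGFBP1* at chr4:15938741-15938990 on the minus strand.
FGF18: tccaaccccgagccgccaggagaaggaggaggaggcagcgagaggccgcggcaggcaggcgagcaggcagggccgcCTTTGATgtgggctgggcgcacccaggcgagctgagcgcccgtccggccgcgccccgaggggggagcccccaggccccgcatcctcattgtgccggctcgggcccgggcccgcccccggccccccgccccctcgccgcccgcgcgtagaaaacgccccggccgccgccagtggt
FGFBP1: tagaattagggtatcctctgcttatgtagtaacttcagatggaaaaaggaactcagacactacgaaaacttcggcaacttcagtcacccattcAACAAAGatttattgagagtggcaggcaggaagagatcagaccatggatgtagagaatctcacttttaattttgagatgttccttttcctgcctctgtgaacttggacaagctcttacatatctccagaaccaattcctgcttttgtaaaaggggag
The match begins 174 bases before the start in *FGF18* (CTTTGAT) and 157 bases before it in *FGFBP1* (AACAAAG, which is the motif read on the other strand). RefSeq windows were at hand for 6 of the 10 members, with 11 windows in all, and 3 windows held a match. The third belongs to 1 of 5 alternative starts of *FGFR2*. Among all 35116 windows of this length 12.0% held a match, so that such a match is common and says nothing on binding. *FGF9*, *FGF19*, *FGF20* and *FGFR1* are not in the table.

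In WT cells the 3 lines differed widely in which of these genes they transcribed. Per kilobase of the canonical transcript, *FGF19* was the highest member in HT29 (2503 ± 893 normalized counts per kb, SD, n = 4) and in SW480 (2164 ± 173), and *FGFR4* was the highest in HCT116 (735 ± 85.5). In HT29 *FGFR4* (470), *FGFR3* (125) and *FGFR2* (107) followed *FGF19*, with libraries that overlapped between neighbours, and *FGF9*, *FGF18*, *FGFBP1* and *FGFR1* were all under 12. In HCT116 *FGFR1* (249), *FGF19* (210), *FGFBP1* (205) and *FGFR3* (191) followed *FGFR4* and overlapped from neighbour to neighbour, and below them came *FGFR2* (102), *FGF2* (62.7), *FGF18* (21.5) and *FGF9* (5.35) without overlap. In SW480 *FGFR1* (395) stood second, *FGFR4* (177), *FGF20* (156) and *FGF18* (132) overlapped, and so did *FGF9* (25.4), *FGFR3* (23.8) and *FGFR2* (17.6). Dividing by all annotated exons instead moved *FGFR1* from rank 2 to rank 5 in HCT116 and to rank 4 in SW480, because its merged exons span 17201 bases and its canonical transcript 5697. In SW480 *FGF20* and *FGF18* then took ranks 2 and 3 (156 and 132), and *FGFR4* moved from rank 3 to rank 5.

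**Figure D1:**
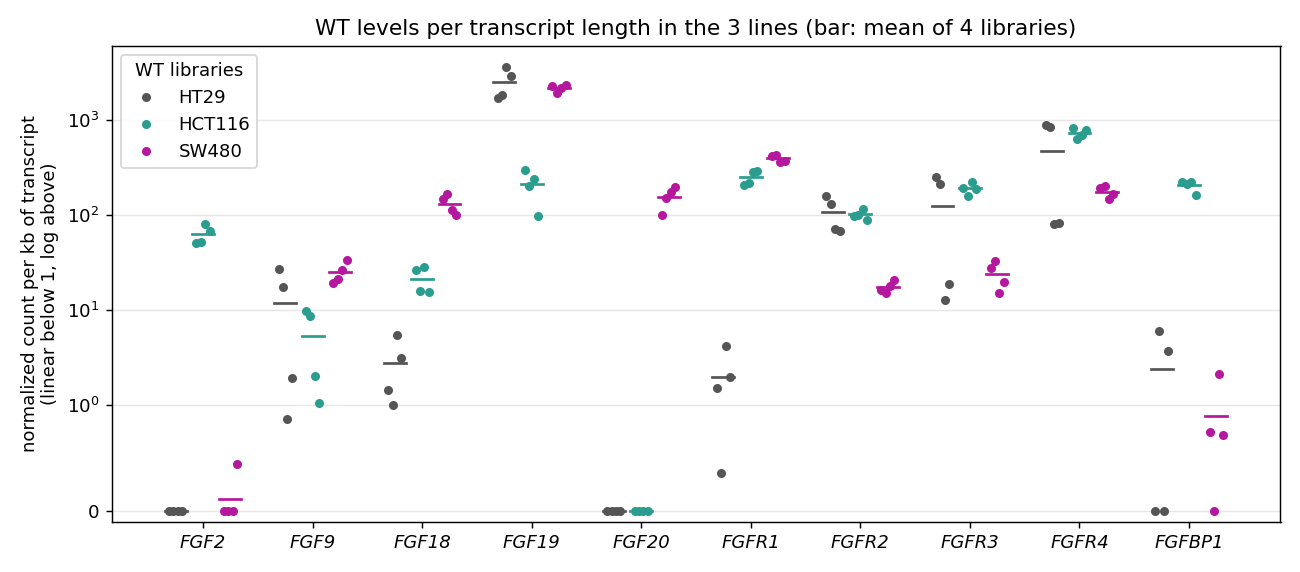
WT levels of the 10 genes as normalized counts per kilobase of canonical transcript (vertical axis, linear below 1 and logarithmic above) in HT29, HCT116 and SW480. Points are the 4 WT libraries of a line and bars their mean. *FGF2* and *FGFBP1* stand high in HCT116, *FGF20* in SW480, *FGFR1* in HCT116 and SW480, and the HT29 points of *FGF9*, *FGFR3* and *FGFR4* fall into a high and a low pair.

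Several genes were close to silent in one line and abundant in another. *FGF2*, a broadly acting mitogen, had 339.4, 349.9, 532.2 and 447.4 normalized counts in the HCT116 WT libraries 4A, 4B, 6A and 6B. It had no read in any HT29 WT library, and 3 reads in all in SW480 WT. HCT116 was therefore at least 132-fold higher than HT29, taking 3 reads per library as the floor, and 575-fold higher than SW480 with a 95% interval of 196 to 2790 from counting error only. *FGF20*, a ligand close to FGF9 in sequence, had 182.9, 276.6, 322.4 and 367.0 in SW480 WT 4A, 4B, 5A and 5B and no read in WT libraries of HT29 or HCT116, so that SW480 was at least 90.9-fold and at least 103-fold higher. *FGFBP1*, which releases FGFs from the extracellular matrix, had between 220.9 and 301.8 in HCT116 WT, 0 to 8.11 in HT29 WT and 0 to 2.90 in SW480 WT. *FGFR1* had 1174 to 1641 in HCT116 WT and 2056 to 2446 in SW480 WT, but only 2.03 to 23.7 in HT29 WT.

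Tested between lines, 6 of the 10 genes differed between HT29 and HCT116, 4 between HT29 and SW480, and 8 between HCT116 and SW480, where 37.3%, 40% and 39.9% of all genes tested passed. These counts only describe the members, which were chosen with earlier results of these data known. *FGF20* passed the filter only through the SW480 WT libraries, and *FGF2* only through HCT116 libraries. Their calls between lines therefore restate why they were tested. *FGF18* had 2.03 to 10.9 normalized counts in HT29 WT, 31.4 to 56.4 in HCT116 WT and 198.7 to 331.7 in SW480 WT, and all 3 differences passed. The log2 difference was −2.91 ± 0.50 (SE) for HT29 against HCT116 (adjusted p = 2.8e-05) and −2.61 ± 0.50 for HCT116 against SW480 (adjusted p = 9.1e-05). *FGF19* was higher in HT29 than in HCT116 (3.61 ± 1.25, adjusted p = 0.017) and lower in HCT116 than in SW480 (−3.47 ± 1.25, adjusted p = 0.0207). *FGFR2* was higher in HT29 (2.50 ± 0.74, adjusted p = 0.0059) and in HCT116 (2.51 ± 0.74, adjusted p = 0.0056) than in SW480. *FGFR3* was higher in HCT116 than in SW480 by 3.04 ± 0.63 (adjusted p = 0.00026), and *FGFR4* by 2.06 ± 0.77 (adjusted p = 0.026). *FGFR3* in HT29 against HCT116 also passed (−1.64 ± 0.63, adjusted p = 0.030), but the call held in only 8 of 19 alternatives. It was lost in edgeR (−0.59, adjusted p = 0.38), without HT29 WT 40A (−0.90, adjusted p = 0.17) or 40B (−1.09, adjusted p = 0.14), and without both, where the value was 0.30. Leaving out 1 of the HCT116 WT libraries 4A, 6A and 6B, or either HCT116 WT clone, also ended it (adjusted p = 0.052 to 0.13). Other calls also rested on single clones: *FGF19* in HT29 against HCT116 without HT29 WT 40 or HCT116 WT 6 (adjusted p = 0.10 and 0.095), *FGFR2* in HT29 against SW480 without HT29 WT 11 (0.076), and *FGF19* and *FGFR4* in HCT116 against SW480 without any 1 of the 4 clones (up to 0.11 and 0.12).

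KO and WT clones were then compared within each line. None of 5 tested members passed both thresholds in HT29, 3 of 9 did so in HCT116 and 6 of 9 in SW480. The shares of all genes tested were 2.3%, 5.06% and 17.5%. A call needed a Benjamini-Hochberg adjusted p under 0.05 in limma and an absolute log2(fold change) over 1, and genes with fewer than 4 libraries at a value of 10 were not tested. In HT29 those were *FGF2*, *FGF18*, *FGF20*, *FGFR1* and *FGFBP1*, in HCT116 *FGF20* and in SW480 *FGF2*. A gene that is high in 1 group only can pass this filter through that group, as *FGF20* and *FGFBP1* did in SW480. As a measure of size, absolute log2(fold changes) of the tested members had medians of 1.42, 0.61 and 3.05 (HT29, HCT116, SW480), beside 0.31, 0.25 and 0.35 over all genes tested. These medians only describe the members, which were chosen with earlier results of these data known. The SW480 median includes *FGF20* and *FGFBP1*. The HT29 median is the value of *FGFR2*, whose log2(fold change) turned to 0.77 without both libraries of KO 28.

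**Figure D2:**
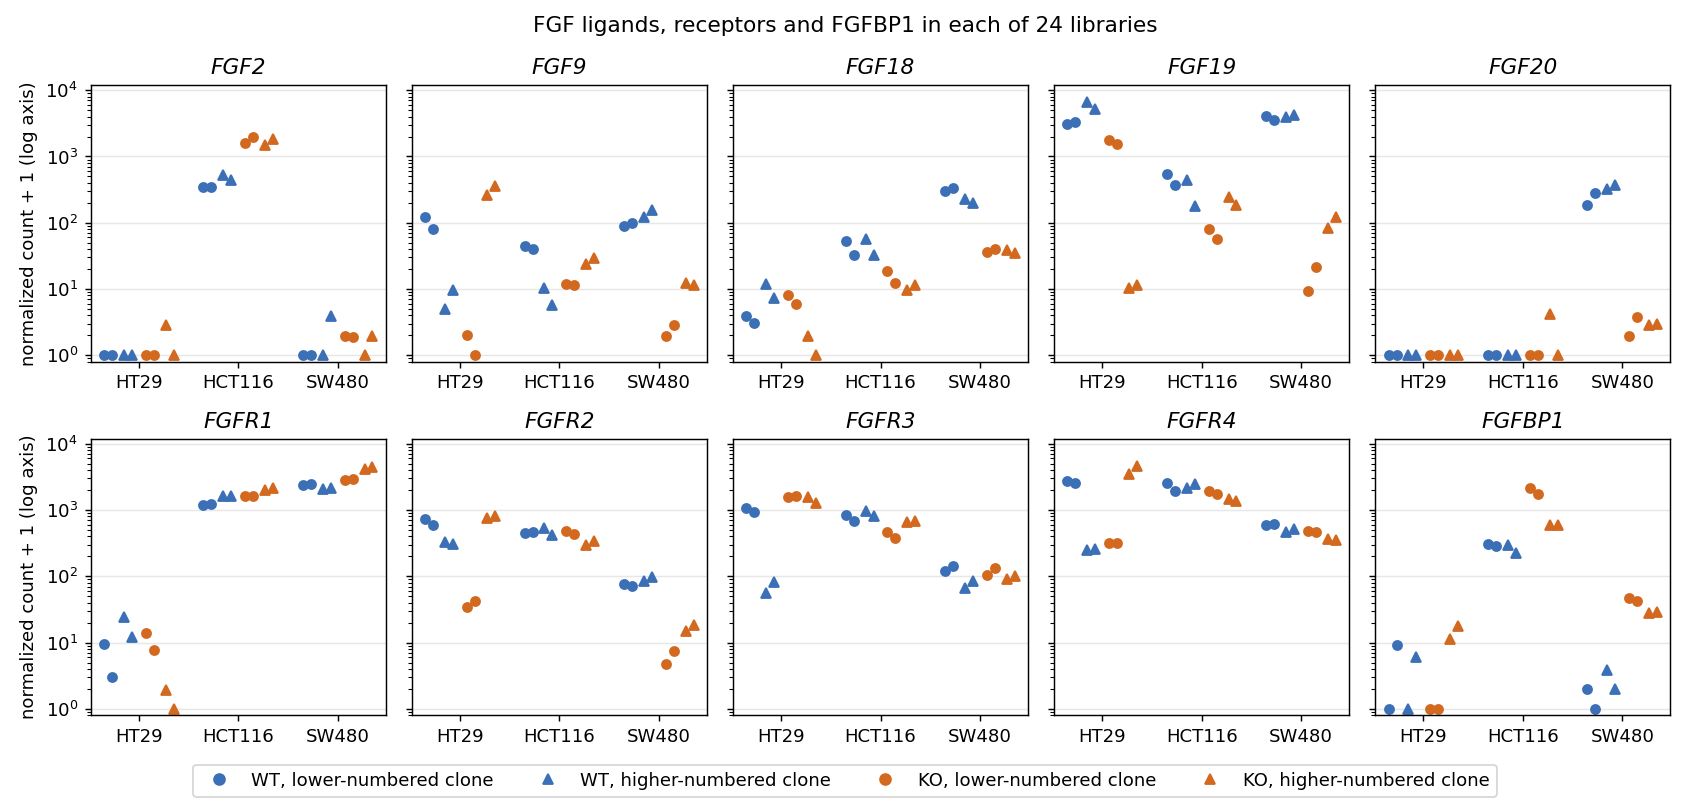
Normalized count plus 1 (vertical axis, logarithmic) of the 10 genes in each of the 24 libraries, by line. Blue points are WT and orange points KO, and circles and triangles are the lower- and higher-numbered clone of a group. In SW480 the KO points of *FGF9*, *FGF18*, *FGF19*, *FGF20* and *FGFR2* all lie below the WT points and those of *FGFBP1* above, whereas in HT29 the clones of a genotype lie far apart.

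In SW480 4 of the 5 ligands passed, and these 4 were all lower in KO. *FGF19* (ENSG00000162344, GRCh37 chr11:69513006-69518790, minus strand) had 4106, 3500, 3940 and 4215 normalized counts in WT 4A, 4B, 5A and 5B, and 8.47, 20.2, 83.1 and 121.0 in KO 17A, 17B, 21A and 21B. All KO libraries were far below all WT libraries, and KO 17 was below KO 21. The means differed 67.7-fold, and the log2(fold change) was −6.70 ± 0.73 (adjusted p = 0.000104). *FGF20* (ENSG00000078579, chromosome 8) fell from the WT values given above to 0.941, 2.75, 1.87 and 1.92, or 8 reads in all, which is 154-fold lower with a counting interval of 77.7 to 357 (adjusted p = 4.8e-08).

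*FGF9* (ENSG00000102678, chr13:22245212-22278637, plus strand), a ligand that epithelia send to mesenchyme during development, had 87.9, 97.4, 120.7 and 154.6 in SW480 WT 4A, 4B, 5A and 5B. In KO 17A, 17B, 21A and 21B it had 0.941, 1.83, 11.2 and 10.6, so that the groups did not overlap (log2(fold change) −4.43 ± 0.58, adjusted p = 0.000153). *FGF18* (ENSG00000156427, chr5:170846651-170884630, plus strand), a ligand known from bone and lung development, had 298.2, 331.7, 225.9 and 198.7 in WT and 35.7, 39.5, 37.4 and 33.6 in KO in the same order. Its KO clones lay close together, and the fall was 7.21-fold (−2.79 ± 0.18, adjusted p = 7.8e-07). *FGF2* was at 3 reads or fewer in each SW480 library of both genotypes.

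Of the SW480 receptors only *FGFR2* passed both thresholds. This receptor, whose epithelial splice form answers to ligands from the mesenchyme (ENSG00000066468, chr10:123237846-123357972, minus strand), had 74.8, 70.8, 84.0 and 96.9 in WT and 3.76, 6.42, 14.0 and 17.3 in KO. The fall was 7.87-fold (−3.05 ± 0.40, adjusted p = 0.000117) with no overlap. *FGFR1*, the most abundant receptor of this line, had 2381, 2446, 2056 and 2116 in WT and 2837, 2964, 4115 and 4478 in KO, a log2(fold change) of 0.65 ± 0.15 that passed the p threshold (adjusted p = 0.0043) but not that of size. Reads of *LETM2*, which overlaps *FGFR1* in the annotation, cannot be told apart from it without strand, and its own log2(fold change) was 0.96 (adjusted p = 0.0031). *FGFR4* was also short of the size threshold at −0.39 ± 0.14 (adjusted p = 0.0365), and *FGFR3* did not pass (0.10 ± 0.24, adjusted p = 0.75).

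*FGFBP1* (ENSG00000137440, chr4:15937200-15940363, minus strand) was the one member that rose in SW480. Its WT libraries had 1.01, 0, 2.90 and 0.979 and its KO libraries 46.1, 41.3, 27.1 and 27.8 normalized counts. From 5 reads in WT and 152 in KO the ratio was 29.5 with a counting interval of 12.4 to 92.1 (adjusted p = 2.2e-05). Of all genes tested in SW480, 10.7% were called higher and 6.76% lower in KO, and of the 9 tested members 1 was higher and 5 lower. The WT and KO libraries did not overlap for 7 of 9 members, beside 46.2% of all genes tested. These counts only describe the members, because the list was drawn up with earlier results of these data known. *FGF20* and *FGFBP1* also passed the filter through 1 group only. The 6 calls held without any single library or clone, and in each of them the adjusted p with the reads of a clone summed was at most 0.018.

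**Figure D3:**
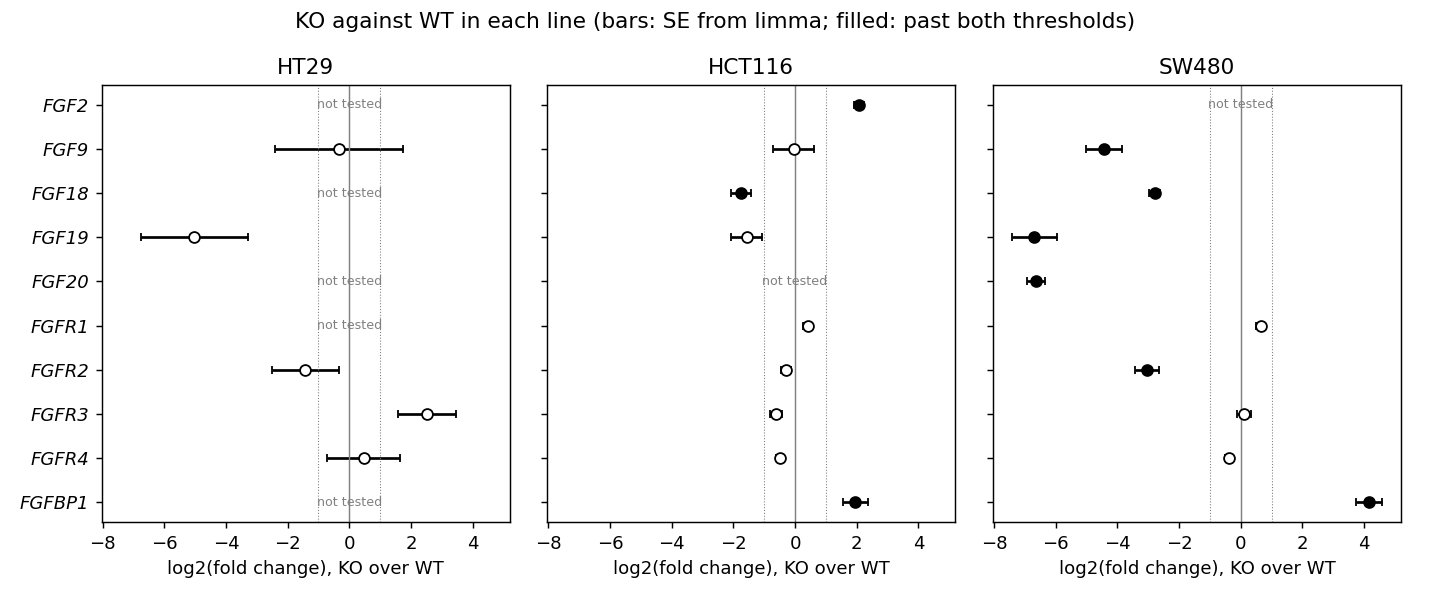
Log2(fold change) of KO over WT (horizontal axis) with its SE from limma for each gene in HT29, HCT116 and SW480. Filled points passed both thresholds, and dotted lines mark −1 and 1. *FGFBP1* lies to the right and *FGF18* to the left in both HCT116 and SW480, and the HT29 bars are the widest.

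In HCT116 the ligand *FGF2* and the binding protein *FGFBP1* rose, and *FGF18* fell. *FGF2* (ENSG00000138685, chr4:123747837-123819391, plus strand) had 1577, 1988, 1499 and 1863 normalized counts in KO 44A, 44B, 47A and 47B, and the WT values given above did not exceed 532.2. All KO libraries were higher, 4.15-fold in the means (log2(fold change) 2.07 ± 0.16, adjusted p = 1.2e-05), and the call held in all 22 alternatives. *NUDT6* overlaps *FGF2* on the opposite strand, so that their reads cannot be told apart without strand. It had 59.3 ± 6.47 in WT and 80.1 ± 24.9 in KO (SD, n = 4) and a log2(fold change) of 0.38 that did not pass (adjusted p = 0.33).

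*FGFBP1* had 301.8, 285.8, 301.2 and 220.9 in HCT116 WT 4A, 4B, 6A and 6B and 2118, 1758, 599.4 and 595.7 in KO 44A, 44B, 47A and 47B. Both KO clones lay above WT, KO 44 by far the more, and the log2(fold change) was 1.96 ± 0.42 (adjusted p = 0.016). The difference between KO 47 and KO 44 itself passed (−1.69 ± 0.17, adjusted p = 0.00034). The call was lost with the reads of a clone summed (adjusted p = 0.31), without WT 6B (0.052), without either WT clone (0.086 and 0.11), and with all genes tested that had a value of at least 1 in 1 library (0.098).

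*FGF18* had 52.3, 31.6, 56.4 and 31.4 in HCT116 WT and 17.7, 11.3, 8.56 and 10.5 in KO, with no overlap (−1.75 ± 0.32, adjusted p = 0.0049), and with summed reads per clone the adjusted p became 0.053. *FGF19* had 544.9, 370.3, 439.8 and 176.1 in WT and 79.6, 55.6, 246.2 and 183.7 in KO. WT 6B and KO 47 overlapped, and the log2(fold change) of −1.56 ± 0.50 did not pass (adjusted p = 0.072). It passed without KO 47A (−1.91, adjusted p = 0.033), without WT 6B (−1.90, adjusted p = 0.042) and without both libraries of KO 47 (−2.39, adjusted p = 0.0037). KO 47 was above KO 44 for *FGF19* by 1.66 ± 0.39 (adjusted p = 0.030), and this difference did not pass without KO 44A, 44B or 47A. *FGF9* had 44.0, 39.0, 9.24 and 4.76 in WT and 10.8, 10.4, 22.5 and 28.6 in KO, and did not pass. Here the WT clones differed from each other (WT 6 below WT 4 by −2.47 ± 0.42, adjusted p = 0.013), a call that was lost without 4A, 4B or 6B.

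None of the HCT116 receptors passed both thresholds. *FGFR4*, the main receptor of FGF19 and the highest member per kilobase in WT cells of this line, had 2526, 1947, 2173 and 2445 in WT and 1931, 1727, 1464 and 1375 in KO. The groups did not overlap, but the difference of −0.49 ± 0.13 (adjusted p = 0.031) stayed short of the size threshold. The log2(fold change) was 0.41 ± 0.15 for *FGFR1*, −0.29 ± 0.17 for *FGFR2* and −0.61 ± 0.20 for *FGFR3*, and none of them passed. Among all genes tested in HCT116, 3.17% were called higher and 1.89% lower, beside 2 and 1 members, and libraries did not overlap for 5 of 9 members beside 20.5% of all genes.

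For each of the 5 members tested in HT29, clones of the same genotype differed from each other by more, in WT or in KO, than the genotypes did. None of the 5 tested members passed in limma, edgeR or DESeq2, and at an unadjusted p under 0.05 there were 2 in limma and 0 in both other tools. Among all genes tested 1.9% were called higher and 0.402% lower in KO, and libraries did not overlap for 2 members, *FGF19* and *FGFR3*, beside 13% of all genes. *FGF19* had 3136, 3308, 6522 and 5263 normalized counts in WT 11A, 11B, 40A and 40B, 1759 and 1523 in KO 28A and 28B, but only 9.49 and 10.4 in KO 38A and 38B. Both KO clones lay below WT, and KO 38 lay below KO 28 by a log2 difference of −7.23 ± 0.19 (adjusted p = 4.8e-06). Over both clones the log2(fold change) was −5.02 ± 1.72 (adjusted p = 0.19). It passed with either KO clone alone, at −1.41 with KO 28 (adjusted p = 0.047) and −8.64 with KO 38 (adjusted p = 6.7e-05).

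*FGFR3* (ENSG00000068078, chr4:1795020-1810599, plus strand) had 1087, 920.4, 55.3 and 81.4 in WT 11A, 11B, 40A and 40B and 1587, 1610, 1576 and 1271 in KO 28A, 28B, 38A and 38B. All KO libraries were higher, but the WT clones were far apart (WT 40 below WT 11 by −3.88 ± 0.24, adjusted p = 0.00013), and the log2(fold change) of 2.53 ± 0.93 did not pass (adjusted p = 0.22). Without WT 11 it was 4.47 and passed (adjusted p = 0.0011), and without WT 40 it was 0.59 and did not.

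*FGF9* and *FGFR4* followed the clone rather than the genotype, and *FGFR2* did so in part. *FGFR4* (ENSG00000160867, chr5:176513906-176525145, plus strand) had 2713 and 2602 in WT 11 and 3475 and 4614 in KO 38, but 248.0 and 256.8 in WT 40 and 319.8 and 320.9 in KO 28. *FGF9* had 121.9 and 79.1 in WT 11 and 262.7 and 353.9 in KO 38, but 3.95 and 8.77 in WT 40 and 1.01 and 0 in KO 28. *FGFR2* had 732.6 and 603.1 in WT 11, 768.3 and 809.0 in KO 38, 332.9 and 311.9 in WT 40 and 33.2 and 41.1 in KO 28. *FGF9* and *FGFR4* were thus high in 1 WT and 1 KO clone and low in the other clone of each genotype. *FGFR2* was also highest in WT 11 and KO 38, but its WT 40 libraries lay well above those of KO 28.

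Between WT 11 and WT 40 4 of 5 members passed, beside 7.58% of all genes, and between KO 28 and KO 38 4 of 5 passed, beside 12.5%. WT 40 was below WT 11 by −3.83 ± 0.52 for *FGF9* (adjusted p = 0.0038), by −3.39 ± 0.19 for *FGFR4* (adjusted p = 9.1e-05) and by −1.04 ± 0.21 for *FGFR2* (adjusted p = 0.022). The *FGF9* call was lost without WT 11A (adjusted p = 0.051), and the *FGFR2* call without any 1 of the 4 WT libraries. KO 38 was above KO 28 by 7.76 ± 0.52 for *FGF9* (adjusted p = 0.00011), 4.38 ± 0.21 for *FGFR2* (adjusted p = 2.7e-05) and 3.64 ± 0.19 for *FGFR4* (adjusted p = 3.5e-05). With KO 28 alone *FGFR2* was lower in KO than in WT (−3.61, adjusted p = 0.0030).

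**Figure D4:**
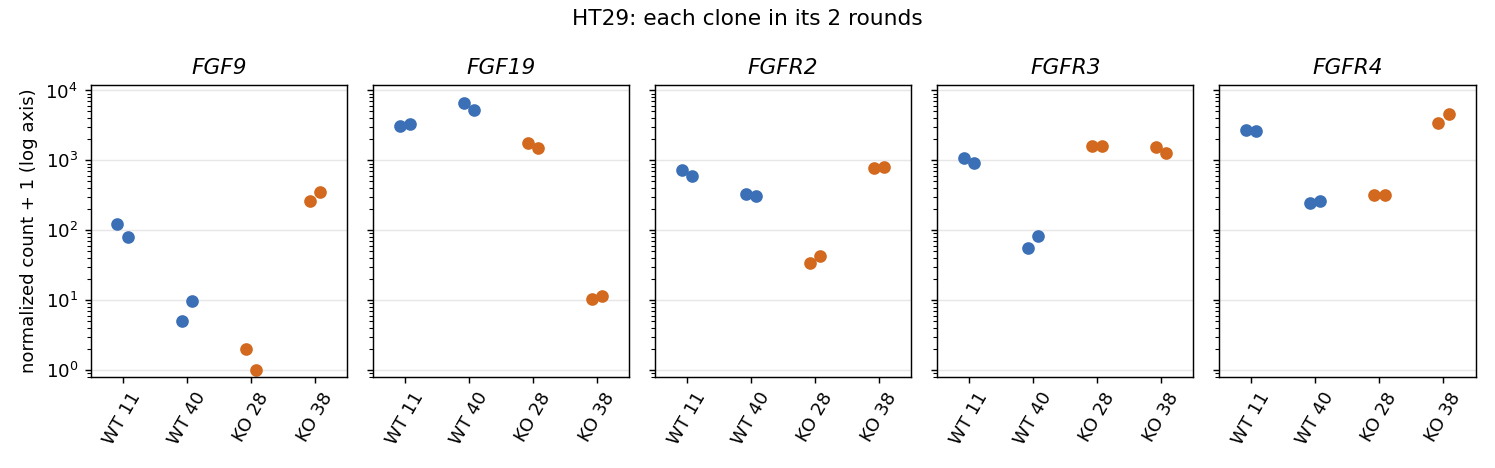
Normalized count plus 1 (vertical axis, logarithmic) of the 5 members tested in HT29, by clone, with 1 point per round. Blue is WT and orange KO. *FGF9*, *FGFR2* and *FGFR4* are highest in WT 11 and KO 38, *FGF19* is lowest in KO 38, and *FGFR3* is lowest in WT 40.

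In the other lines fewer members differed between clones of 1 genotype. Between HCT116 clones it was 1 of 9 for WT and 2 of 9 for KO, beside 1.44% and 3.28% of all genes. Between the SW480 WT clones none of 9 passed in limma or edgeR (4 and 6 at an unadjusted p under 0.05), beside 1.97% of all genes. Between KO 17 and KO 21 it was 3 of 9, beside 4.61%. KO 21 was above KO 17 by 2.84 ± 0.39 for *FGF19* (adjusted p = 0.0036), 2.34 ± 0.35 for *FGF9* (adjusted p = 0.00013) and 1.48 ± 0.33 for *FGFR2* (adjusted p = 0.0035), and both clones remained far below WT for all 3 genes.

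Whether the KO effect differed between lines was tested for members that could be tested in both. Between HT29 and HCT116 1 of 5 passed, beside 5.11% of all genes: the *FGFR3* effect was 3.14 ± 0.89 higher in HT29 (adjusted p = 0.034), a call that held in 14 of 28 alternatives and was lost, among others, in edgeR (adjusted p = 0.12) and without either HCT116 WT clone (0.080 and 0.11). Between HT29 and SW480 none of 5 passed in limma (1 at an unadjusted p under 0.05, and 1 called in edgeR), beside 9.53%. Between HCT116 and SW480 none of 8 passed in limma (3 at an unadjusted p under 0.05, and 1 called in edgeR), beside 8.1%. There *FGF19* had the largest difference (5.14 ± 1.77, adjusted p = 0.062). That test shares its estimate of the spread with the HT29 clones. With only the libraries of HCT116 and SW480, an alternative added after the data had been seen, 5 of 8 passed: *FGF19* (adjusted p = 0.0014), *FGF9* (0.0023), *FGFR2* (0.00017), *FGF18* (0.045) and *FGFBP1* (0.010), all with the larger change in SW480. The share of all genes that passed in that fit was not determined, so that 5 of 8 has no share to stand beside it.

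The other genes of the pathway were followed in 5 lists of 70 genes. In HT29 none of the 41 tested genes passed in limma (7 at an unadjusted p under 0.05), beside 2.3% of all genes tested that passed. In HCT116 5 rose and 2 fell of 44, beside 3.17% and 1.89% of all genes tested. In SW480 9 rose and 4 fell of 43, beside 10.7% and 6.76%. Median log2(fold change) of the lists together was −0.12, 0.02 and 0.00 in HT29, HCT116 and SW480, beside 0.03, −0.01 and 0.00 over all genes tested.

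Among the feedback inhibitors and response genes, 2 of 13 rose and 2 fell in HCT116, and 5 of 14 rose and 2 fell in SW480, where 5.06% and 17.5% of all genes tested were called in either direction. *SPRY1*, an inhibitor of RAS activation downstream of receptor kinases, rose in both, 2.35-fold in HCT116 (log2(fold change) 1.24 ± 0.28, adjusted p = 0.015) and 10.7-fold in SW480 (3.39 ± 0.51, adjusted p = 0.00043). In HCT116 the phosphatase gene *DUSP5* rose 3.88-fold, whereas its relative *DUSP6*, a phosphatase of ERK that MAPK signaling induces, fell 2.22-fold and the ETS factor gene *ETV1* fell 2.94-fold. In SW480 *SPRED3* rose 7.11-fold and *IL17RD*, a membrane inhibitor of FGF signaling, fell 6.88-fold. *SULF2*, which trims sulfate groups from heparan sulfate, rose 2.37-fold in HCT116 and 6.94-fold in SW480. In HCT116 its groups overlapped, with 707.4 and 649.0 in KO 44A and 44B but 289.0 and 345.4 in KO 47A and 47B, beside 293.8 in WT 6A.

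Further FGF genes were mostly silent, with 0, 2 and 3 of 17 tested in HT29, HCT116 and SW480. *FGF4*, whose gene lies between those of *FGF19* and *FGF3* on chromosome 11, had no read in any SW480 library. *FGF3*, a ligand whose gene lies 106 kb from *FGF19* on chromosome 11, had 521.5, 422.7, 387.1 and 333.7 in SW480 WT and 1.88, 1.83, 45.8 and 23.0 in KO 17A, 17B, 21A and 21B. Like *FGF19*, it was lower in all KO libraries, and lower in KO 17 than in KO 21 (log2(fold change) of KO over WT −5.39 ± 0.87, adjusted p = 0.00085). *FGF1*, a ligand that binds all FGF receptors and is named here after its values were seen, went the other way. It had 70.8, 48.7, 65.6 and 43.1 in SW480 WT and 128.9, 113.8, 119.5 and 148.8 in KO, with no overlap, and rose 2.24-fold (1.17 ± 0.19, adjusted p = 0.00056). *FGF13*, the remaining gene tested there, was not called, and its KO clones lay far apart. It had 907.7 and 901.0 in KO 17A and 17B but 112.1 and 96.0 in KO 21A and 21B, beside 45.0 to 116.2 in WT. Among 9 tested coreceptors and binding proteins of SW480, *KL*, which encodes α-Klotho, fell 4.61-fold and *SDC4*, also named after its values were seen, rose 2.66-fold. No other gene of that list was called there, beside 17.5% of all genes tested. *SDC4* was also called higher in HCT116, as the only call among 10 tested, beside 5.06%. *KLB*, which encodes β-Klotho, was too low to be tested in SW480. It had 0.979 to 8.09 in WT and 0 to 3.76 in KO, beside 9.88 to 34.2 in libraries of the other lines. *GAB1*, a docking protein for receptor kinases, rose 2.58-fold in HCT116. It was the only call among 10 receptor-proximal transducers there, beside 5.06% of all genes tested. In SW480 none of 10 was called, beside 17.5%.

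Markers of differentiation and of other cell types moved in the same comparisons. In HT29 3 of 8 tested epithelial markers were called higher in KO, beside 1.9% of all genes tested. The summed list was at 325834 to 466928 in WT libraries and 490423 to 784641 in KO libraries. The fibroblast sum was 14.2 to 26.9 in HT29 WT libraries and 108.6 to 1212 in KO libraries, of which *LUM*, at 0 in all WT libraries, made up most, while *DCN* and *PDGFRA* were at 0 in KO. In HCT116 1 of 7 tested epithelial markers was called higher and 1 lower in KO, beside 3.17% and 1.89% of all genes tested. The lower one was *KRT20*. Only 2 fibroblast markers could be tested there, and neither was called, while no endothelial or leukocyte marker passed the filter. In SW480 *CDX2* was lower. The endothelial sum was 11.6 to 32.3 in WT libraries and 117.6 to 234.2 in KO libraries, with *CDH5* at 0 in all WT and *TEK* at 0 in all KO libraries. The leukocyte sum was 50.5 to 66.7 and 157.8 to 221.3, with *PTPRC* at 0 in all WT libraries and *CD3E* at 0 in all KO libraries. Their part in the differences of the FGF genes was not tested.

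The genes most like each member over the 24 libraries were described by Pearson's r of log2 values among 18599 genes. *FGF20* was closest to *OLR1* and *AFF3* (0.99 for both), *FGF2* to *CCNYL2* and *TLX3* (0.99 for both), *FGFR1* to *PRKAA2* and *SDC3* (0.99 for both) and *FGF18* to *ADARB1* (0.96). For *FGF9* the gene nearest to it, *DTD1*, reached only 0.79, and for *FGF19* *SLC7A6* reached 0.85. The 24 libraries come from 3 lines and 12 clones, so that differences between lines enter all of these values.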

How the data were processed

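RNA of 24 libraries was measured. The authors prepared TruSeq v2 libraries, aligned reads to GRCh37 with STAR 2.7.5b, counted them per gene with featureCounts 2.0.1 and normalized them with DESeq2. The strand setting is not given in the sources used here. The deposited values are signal, that is read counts divided by 1 size factor per library. Of 3 further deposited tables of DEGs, which hold the authors' fold changes and p-values, none was used. Whole reads (100% within 0.001) were recovered for edgeR and DESeq2 and totalled 22297049 to 29068378 per library. The precision of low values follows from these reads, and floors of 3 reads and 95% intervals (exact Clopper-Pearson) cover counting error only.

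Because the deposited values are not counts, limma 3.58.1 (trend, robust) on log2 of the value plus a pseudocount of 1 was the test, fitted per line or, between lines, over all 24 libraries. Genes at 10 or more in at least 4 of 8 libraries (4 of 24 between lines) were tested, with p adjusted over all of them. Fold changes on this scale understate those of low genes. Median shifts stayed under 0.1 (log2). Tests were checked on simulated data. The alternatives were pseudocounts of 0.1 and 5, filters, CPM, edgeR 4.0.16 with TMM, DESeq2 1.42.0, summed reads per clone, a random effect of the clone, a block for the round, each library or clone left out and, added after the data had been seen, fits with only the libraries of both lines. Deviations of the rounds correlated at 0.182 to 0.374 in HCT116 (6 of 6 pairs over 0.1, so that rounds pair there), at −0.309 to 0.424 in HT29 (2 of 6) and at −0.0411 to 0.127 in SW480 (1 of 6). Lengths, positions and overlaps came from GENCODE on GRCh37, promoters from RefSeq. R 4.3.3 and Python 3.11.15 were used.

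The members and lists were chosen with earlier results of these data known. All members were named. Of the listed genes up to 6 called ones per line with the largest change were named, and per member up to 2 genes most like it. *FGF1*, *FGF4*, *FGF13*, *KLB* and *SDC4* were named in addition, after their values were seen.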

Additional observations from a re-analysis of the deposited data

Results flagged for a closer look

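Among the 10 genes, groups with a mean normalized count of at least 10 were searched for a library far from the others of its group. In the 4 HT29 KO libraries *FGFR3* had 1271 in KO 38B and 1576 to 1610 in the others. That gap is 0.899 of the whole range and exceeds Dixon's 95% critical value for 4 samples. Chance flags about 1 in 20 groups, and 44 groups were searched.

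The KO effect on *FGFR3* differed between HT29 and HCT116 by 3.14 on the log2 scale (adjusted p = 0.034, interaction term in limma). *FGFR3* was higher in all 4 HT29 KO libraries than in all HT29 WT libraries, and the HCT116 KO mean of 550.1 was below the WT mean of 819.5, with overlapping libraries. Neither effect passed within its own line. The values of the interaction ran from 1.2 without WT 40 of HT29 to 5.07 without WT 11.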

How the results depend on the processing

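The number of the 10 genes called stayed within 1.5 times the main count under most alternatives. Exceptions for KO against WT were 1 of 3 in HCT116 with the reads of each clone summed and 1 of 6 in SW480 with at least 10 in each library, where 5 of the 9 genes were no longer tested. The 1 call for the KO effect in HT29 against HCT116 became 0 in edgeR, with a random effect of the clone and with only the libraries of both lines. The 0 calls became 1 in edgeR for HT29 against SW480, and 1 in edgeR and 5 with only the libraries of both lines for HCT116 against SW480. Leaving out libraries or clones gave 0 to 2 calls in HT29, 2 to 3 between its WT clones, 0 to 1 between WT and 1 to 2 between KO clones of HCT116, and 0 to 3, 0 to 3 and 0 to 1 for the 3 comparisons of KO effects.

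Directions turned for members that did not pass, and for one WT difference that did. *FGF9* in HT29 was 0.28 with a pseudocount of 5, 1.48 in edgeR and 1.5 in DESeq2, and left-out clones gave −4.21 to 3.54 for *FGF9*, −3.61 to 0.77 for *FGFR2* and −1.35 to 2.29 for *FGFR4*. Left-out libraries or clones gave −1.28 to 1.19 for *FGF9* in HCT116, −0.29 to 0.49 for *FGFR3* in SW480 and, for the called *FGFR3* difference of WT HT29 against HCT116, −3.58 to 0.30, the last without both rounds of WT clone 40 of HT29. With all genes tested that had at least 1 in 1 library, WT calls of *FGF19* (adjusted p = 0.054 and 0.060), *FGFR3* in HT29 against HCT116 (0.075) and *FGFR4* (0.071) were lost. The causes were not tested.

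With the round as a replicate block 3 genes were called in HCT116, 6 in SW480 and 0 in HT29, as without it, and no call of a member changed. Over all genes tested, calls in HT29 were 343 in limma, 217 with the block, 301 in edgeR, 780 in DESeq2, 121 with a random effect of the clone and 0 with summed reads, where 854 had an unadjusted p under 0.05. In HCT116 they were 779 in limma and 322 with summed reads. Genes at a few reads per library, such as *FGF2* in HT29 and SW480, allow no comparison at this depth.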
